A study of Mus musculus with 47 samples.

Results

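Oxidative phosphorylation is the final stage of fuel oxidation in mitochondria, and the genes described here encode its protein subunits. Members were taken by symbol from the deposited table of exon read counts, which lists 38087 genes. A member has a symbol beginning with Nduf, a letter of the A, B, C, S or V groups and a digit, is Sdha, Sdhb, Sdhc or Sdhd, or begins with Uqcr, with Cox and a digit from 4 to 8, or with Atp5. The rule found 85 genes: 37 of complex I, 4 of complex II, 8 of complex III, 18 of complex IV and 18 of complex V. The rule used names alone, but it was chosen with earlier results of these data known. By the symbol, Ndufa4 and Ndufa4l2 are counted with complex I, although Ndufa4 protein is now placed in complex IV. Atp5s and Atp5sl carry the symbol of complex V without being structural subunits, and Atp5l2 is annotated as a processed pseudogene in GENCODE M21.

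RNA was extracted from the ileum, the end of the small intestine next to the colon, and from the duodenum, the end next to the stomach, of C57BL/6j males, 15 to 16 weeks old and fed ad libitum. Mice were either germ-free (GF), kept free of any microbe, or carried a normal flora (conventionally raised, convR). Tissue was taken at 2, 6, 10, 14, 18 and 22 h of zeitgeber time (ZT), which is counted from the start of the light phase. The groups held 11 libraries of GF ileum, 12 of convR ileum, 12 of GF duodenum and 12 of convR duodenum, with 2 libraries per group and time except for 1 library of GF ileum at ZT2. The groups share strain, sex, age range and feeding and differ in tissue, microbial status and time, and no transgene or treatment agent is named for any of them. Nothing in the labels says that libraries of a group came from separate mice, so p-values measure the spread between these libraries, which may be technical.

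In the mitochondrial inner membrane, complex I takes electrons from NADH and complex II takes them from succinate, a step that complex II also performs for the tricarboxylic acid cycle. Both hand them to ubiquinone, complex III passes them to cytochrome c and complex IV to oxygen, and the ATP synthase, complex V, uses the proton gradient that complexes I, III and IV build. The absorptive epithelium of the small intestine is rich in mitochondria and relies on this ATP to drive sodium-coupled uptake of nutrients.

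Levels are given as CPM, read counts divided by the library total and scaled between libraries with the TMM method of edgeR. Total counts per library lay between 22.5 and 41.9 M. All 5 ileum markers examined, among them the bile acid carrier gene Slc10a2, were higher in ileum than in duodenum in both GF and convR mice, and all 5 duodenum markers were lower, as the tissue labels state. In 12 libraries, 10 of duodenum and 2 of ileum, pancreas or stomach markers, the scaling factor or a low level of the ileal gene Fabp6 stood apart from the rest. These were convR duodenum ZT6 and ZT14 replicate 1, convR duodenum ZT2, ZT6, ZT14, ZT18 and ZT22 replicate 2, GF duodenum ZT6 replicate 1 and both ZT22 replicates, convR ileum ZT6 replicate 2 and GF ileum ZT22 replicate 2. The tests between groups were repeated without them, and the summed levels, isoform shares and correlations were too, after the data were seen. The table used has no row for any of the 13 subunits encoded by mitochondrial DNA, which are not analysed here.

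The promoters of a few members that the sections below turn on are shown. Sdhd and Uqcrc1 were among the members most reduced in ileum. Atp5g3 and Atp5g2 encode the same mature protein but differed in their tissue pattern. Every window printed carries a searched motif, so these windows do not stand for the members at large. Other strongly reduced members, such as Uqcrfs1 and Ndufa5, are not shown. Sequences are RefSeq promoter windows of GRCm38.p6, from 250 bases before to 50 bases after the annotated start, read 5′ to 3′ on the strand of the gene. Capitals mark a motif that was searched on both strands. In Sdhd and Atp5g3 it is the estrogen-related receptor motif TCAAGGTCA, found as its reverse complement TGACCTTGA. In Uqcrc1 and Atp5g2 it is the consensus of nuclear respiratory factor 1, a palindrome. The windows lie at chr9:50603800-50604099 on the minus strand for Sdhd, chr2:73911277-73911576 on the minus strand for Atp5g3, chr9:108936398-108936697 on the plus strand for Uqcrc1 and chr15:102670998-102671297 on the minus strand for Atp5g2.
Sdhd: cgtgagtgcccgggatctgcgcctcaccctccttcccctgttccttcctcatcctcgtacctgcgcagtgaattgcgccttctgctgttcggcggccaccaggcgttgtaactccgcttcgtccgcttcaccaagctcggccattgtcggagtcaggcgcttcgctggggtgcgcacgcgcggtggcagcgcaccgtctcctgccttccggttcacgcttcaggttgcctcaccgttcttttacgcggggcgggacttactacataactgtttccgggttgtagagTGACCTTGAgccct
Atp5g3: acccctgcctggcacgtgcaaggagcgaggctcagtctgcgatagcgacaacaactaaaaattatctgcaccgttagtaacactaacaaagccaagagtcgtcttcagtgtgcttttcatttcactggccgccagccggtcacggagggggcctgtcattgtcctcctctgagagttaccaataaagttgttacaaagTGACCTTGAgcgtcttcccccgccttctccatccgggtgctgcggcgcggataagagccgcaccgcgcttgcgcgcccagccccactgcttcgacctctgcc
Uqcrc1: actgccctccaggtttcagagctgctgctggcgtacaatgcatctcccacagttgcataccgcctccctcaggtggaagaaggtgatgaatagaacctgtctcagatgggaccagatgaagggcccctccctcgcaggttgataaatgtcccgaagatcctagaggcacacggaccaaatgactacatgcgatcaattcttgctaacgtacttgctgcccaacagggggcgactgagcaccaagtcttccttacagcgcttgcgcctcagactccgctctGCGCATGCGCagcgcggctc
Atp5g2: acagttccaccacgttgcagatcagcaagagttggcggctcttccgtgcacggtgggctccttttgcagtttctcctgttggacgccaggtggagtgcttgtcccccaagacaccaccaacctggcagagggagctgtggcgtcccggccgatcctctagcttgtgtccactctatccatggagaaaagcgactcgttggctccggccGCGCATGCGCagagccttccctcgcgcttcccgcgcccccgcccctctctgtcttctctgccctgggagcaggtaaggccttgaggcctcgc

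Promoter windows were at hand for 67 of the 85 members, in 73 windows, and for 32851 windows in all. The nuclear respiratory factor 1 palindrome was in 5 member windows (6.85%) against 0.971% of all windows. The estrogen-related receptor motif was in 2 member windows (2.74%), those of Sdhd and Atp5g3 printed above, against 0.423% of all windows. The ETS motif CCGGAAGT was in 5 member windows (6.85%) against 3.89% of all, and the YY1 motif AAGATGGC in 11 (15.1%) against 2.75%. The 4 motifs share no longer stretch with each other, and a match is a description of letters, not a bound site.

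Levels differed widely among the subunit genes. Between genes, levels were compared per length, as CPM per kilobase of the deposited exon length (RPKM), averaged over the 4 groups. Cox6b1, a subunit at the interface of the complex IV dimer, and Atp5a1, the alpha subunit of the ATP synthase head, each stood at 428.2 RPKM, followed by the catalytic beta subunit gene Atp5b at 382.8 RPKM. Of the 85 members, 31 were at or above 100 RPKM, among them Sdhd (183.2 RPKM), Uqcrc1 (222.3 RPKM) and Atp5g3 (164.2 RPKM). At the other end, 6 members were under 1 RPKM. Cox8b and Cox6a2, the heart and skeletal muscle isoforms of their subunits, stood at 0.4652 and 0.1637 RPKM, the lung isoform Cox4i2 at 0.3883 RPKM and the hypoxia-inducible Ndufa4l2 at 0.3717 RPKM. Cox7b2 and Cox8c, known from testis, had no read in any of the 47 libraries, which allows up to 3 counts or 0.0708 to 0.147 scaled CPM per library. Counting intervals and limits of this kind cover counting error only.

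**Figure D1:**
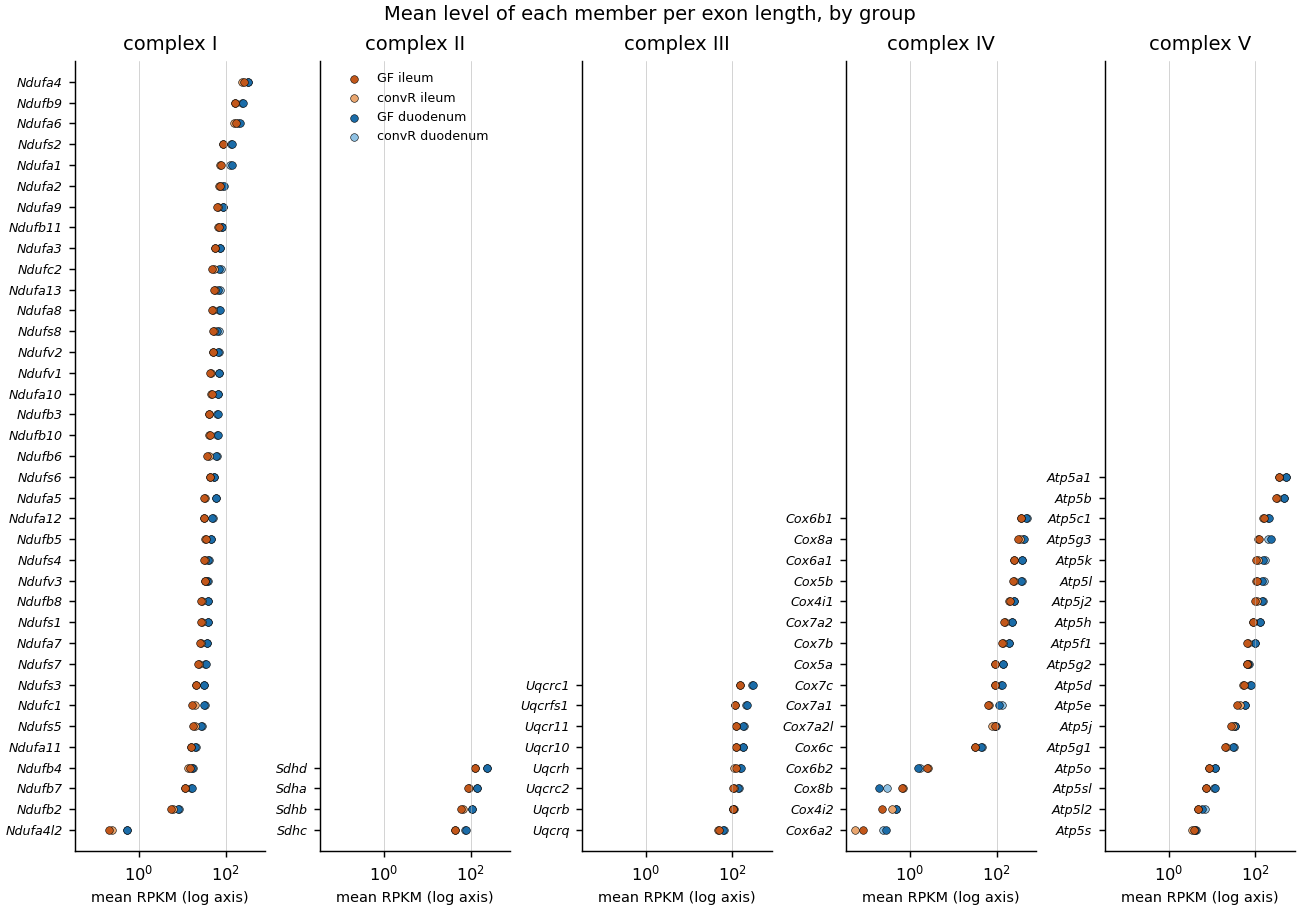
Mean level of each member in RPKM (TMM-scaled CPM per kilobase of exon, log axis) by complex, with 1 point per group; members with no read in a group are not drawn. Ileum points lie left of duodenum points for most genes, and the low isoform genes lie under 1 RPKM.

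In most families 1 isoform gave nearly all transcripts. Cox4i1, Cox6a1, Cox6b1, Cox8a and Ndufa4 each made up at least 99.3% of the RPKM of their family in every group. The Atp5g family was mixed. Its 3 genes encode the same mature protein of the ATP synthase ring behind different import sequences. Atp5g3 held 58.9% ± 2.02 of the family RPKM in GF ileum and 69.9% ± 1.04 in GF duodenum, and 57.6% ± 1.64 in convR ileum and 65.7% ± 2.16 in convR duodenum (SD, n = 11, 12, 12 and 12). Atp5g2 held 31.1% in GF ileum and 20.6% in GF duodenum, and 31.7% in convR ileum and 23.4% in convR duodenum, while Atp5g1 stayed between 9.5% and 10.9% in the 4 groups. In the Cox7a family, Cox7a2, the form found in most tissues, held 48.4%, 52.5%, 51.6% and 50.4% in GF ileum, convR ileum, GF duodenum and convR duodenum. Cox7a1, the form known from heart and skeletal muscle, held 21.1%, 21.8%, 26.6% and 29.3% in the same order of groups. Cox7a2l held 30.5%, 25.7%, 21.8% and 20.3% in that order. These shares rest on the deposited exon lengths, which for Atp5g1 (4912 bases) and Atp5g2 (441 bases) differ widely, and they were not tested. Without the libraries that stood apart the Atp5g3 share was 58.5% in GF ileum and 70.2% in GF duodenum, and 57.5% in convR ileum and 66.6% in convR duodenum.

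**Figure D2:**
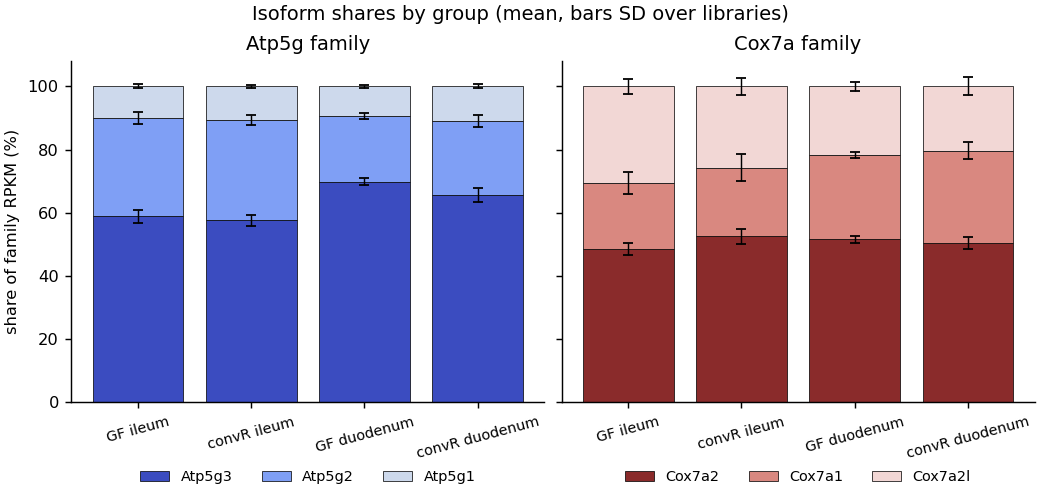
Share of each isoform in the summed RPKM of the Atp5g and Cox7a families (%), as stacked means with SD over libraries, for GF ileum, convR ileum, GF duodenum and convR duodenum. The Atp5g2 share is 31.1% and 31.7% in the ileum groups and 20.6% and 23.4% in the duodenum groups.

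The clearest difference among the groups was between tissues. In GF mice 74 of 79 tested members were lower in ileum than in duodenum, 1 was higher and 4 did not pass, at an edgeR quasi-likelihood adjusted p of 0.05 or less over all genes, where 33.4% of all genes were called lower and 33.2% higher. In convR mice 76 of 81 tested members were lower, 1 was higher and 4 did not pass, where 24.8% of all genes were called lower and 24.9% higher. The median member difference was -0.53 on the log2 scale in GF mice, against 0.01 over all tested genes, and -0.51 in convR mice, against 0.01 over all tested genes. Only 17.7% of all tested genes in GF mice and 12.5% in convR mice had a difference below the median member. Of the 79 members tested in both, 73 were called lower in both. In GF mice 61 members were lower without any overlap between ileum and duodenum libraries, where 11% of all genes were, and in convR mice 12 were, where 3.79% of all genes were. In bulk tissue, fewer cells of a type and less RNA per cell cannot be told apart.

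Summed over all 85 members, the level was 9862, 10280 and 11280 CPM (lowest, median, highest) in GF ileum and 14100, 15230 and 17140 CPM in GF duodenum. It was 9265, 10600 and 12620 CPM in convR ileum and 11550, 15830 and 18400 CPM in convR duodenum. The GF groups did not overlap, while the lowest convR duodenum library lay within the range of convR ileum. Without the libraries that stood apart the convR groups did not overlap, at 9265 to 11830 CPM in 11 ileum and 14380 to 16250 CPM in 5 duodenum libraries. These 5 included no library of ZT6 or ZT14, where replicate 1 was lowest for the members, and replicate 2 at ZT10 only. The group means gave ileum as 68.2% of duodenum in GF mice and 69.1% in convR mice, and without the libraries that stood apart 69.3% and 67.9%. By complex, ileum stood at 70.5% of duodenum in GF mice for complex I, 57.1% for complex II, 66.5% for complex III, 72.9% for complex IV and 68.1% for complex V. In convR mice these shares were 70.4%, 59.8%, 66.4%, 72.0% and 70.2%. Complex II had the lowest share in both, a description that was not tested.

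**Figure D3:**
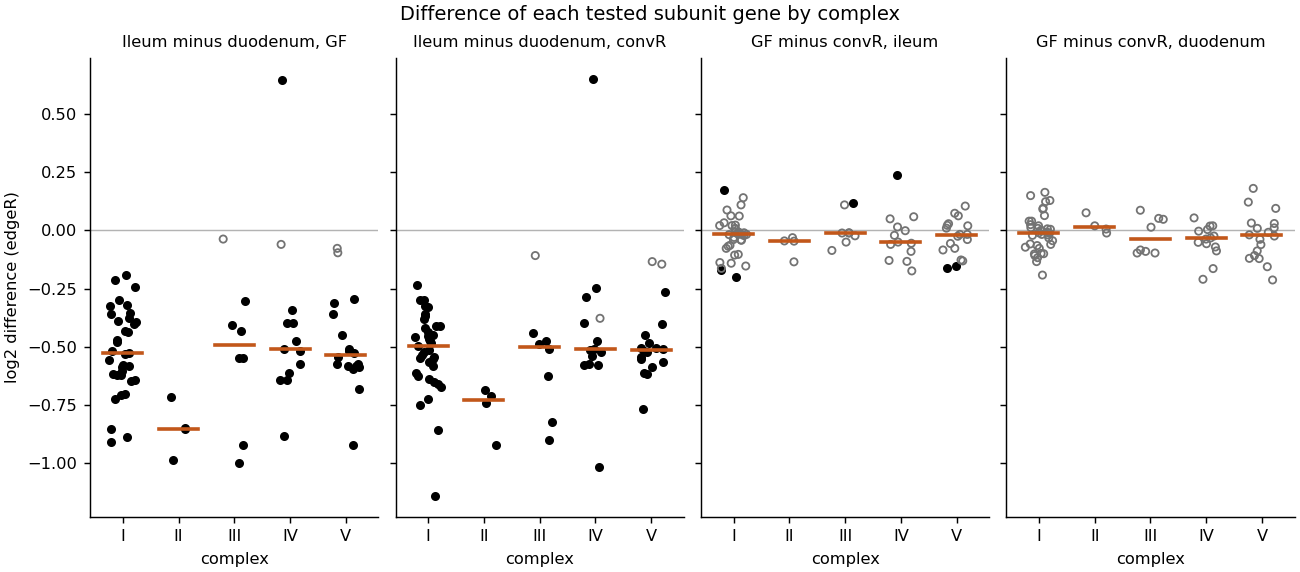
Log2 difference of each tested member by complex in 4 comparisons, with filled points for an edgeR adjusted p of 0.05 or less and open points for the rest. Members lie mostly below 0 in both panels of ileum minus duodenum, with medians of -0.53 in GF and -0.51 in convR mice, and near 0 in both panels of GF minus convR.

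All 4 genes of complex II, the succinate dehydrogenase, were lower in ileum in both GF and convR mice, with median differences of -0.85 and -0.73. Sdhd, which encodes a membrane anchor and lies on chromosome 9 at 50596357 to 50603812 of GRCm38 in GENCODE M21, had 149.6, 157.7 and 171.3 CPM in GF ileum (lowest, median, highest) and 285.1, 309.0 and 346.4 CPM in GF duodenum. It had 136.5, 156.2 and 209.1 CPM in convR ileum and 237.6, 320.7 and 364.9 CPM in convR duodenum. Every ileum library lay below every duodenum library of the same status. Its difference was -0.99 ± 0.0348 (SE) in GF mice and -0.92 ± 0.0876 in convR mice on the log2 scale, with edgeR adjusted p of 1.41e-15 and 1.44e-08, and it was lower at each of the 6 times in both. Sdha, the flavoprotein that oxidises succinate, had 349.2, 366.3 and 388.2 CPM in GF ileum and 571.0, 591.9 and 644.7 CPM in GF duodenum, and 346.9, 372.9 and 448.2 CPM in convR ileum and 485.4, 622.1 and 671.1 CPM in convR duodenum. Its groups did not overlap either, and it differed by -0.72 in GF and -0.69 in convR mice (edgeR adjusted p of 1.69e-13 and 1.42e-08). The iron-sulfur subunit gene Sdhb differed by -0.85 and -0.71 and the other anchor gene Sdhc by -0.85 and -0.74, with no overlap in GF mice and some overlap in convR mice.

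In complex I all 36 tested members were lower in GF ileum and all 37 in convR ileum, with median differences of -0.53 and -0.50. Ndufa5, an accessory subunit, had 28.63, 32.8 and 36.63 CPM in GF ileum and 48.1, 61.96 and 80.36 CPM in GF duodenum, and 28.54, 34.8 and 38.51 CPM in convR ileum and 47.19, 62.9 and 74.03 CPM in convR duodenum. The tissues did not overlap in either status, and it differed by -0.91 ± 0.0568 in GF and -0.86 ± 0.0663 in convR mice (SE; edgeR adjusted p of 9.33e-12 and 6.17e-10). The accessory subunit gene Ndufa1 differed by -0.86 and -0.73, and Ndufv1, whose product binds NADH and the flavin at the entry of the chain, by -0.73 and -0.66. Ndufb10, another accessory subunit, differed by -0.62 and -0.63, without overlap in either status. The smallest called difference among these genes was that of Ndufb4 in GF mice, at -0.19, and that of Ndufv3 in convR mice, at -0.23, and without replicate 2 neither passed, at -0.18 for Ndufb4 (adjusted p = 0.0539) and -0.26 for Ndufv3 (adjusted p = 0.0522). Ndufa4l2 was called lower in convR ileum at -1.14 (edgeR adjusted p = 0.00044), but on 94 reads in all of convR ileum and 204 in convR duodenum. In GF mice, with 70 reads in GF ileum and 179 in GF duodenum, it fell under the filter for low counts, and without the filter it was called lower at -1.30 (adjusted p = 2.55e-06).

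In complex III, 7 of 8 members were lower in ileum in each status. Uqcrc1, a core subunit on chromosome 9 at 108936633 to 108949623, had 220.1, 244.8 and 286.3 CPM in GF ileum and 415.8, 482.5 and 588.8 CPM in GF duodenum. It had 213.2, 249.8 and 337.2 CPM in convR ileum and 338.9, 492.1 and 604.5 CPM in convR duodenum. The tissues did not overlap in either status, and the differences were -0.999 ± 0.0587 and -0.90 ± 0.101 (SE; edgeR adjusted p of 3.68e-12 and 1.56e-07). Uqcrfs1, the Rieske iron-sulfur protein, had 145.3, 156.2 and 176.9 CPM in GF ileum and 266.8, 300.2 and 367.8 CPM in GF duodenum, and 133.1, 159.0 and 198.3 CPM in convR ileum and 201.8, 298.3 and 337.0 CPM in convR duodenum. It too showed no overlap, with differences of -0.92 and -0.83. Uqcrb, the ubiquinone-binding subunit gene on chromosome 13 at 66900617 to 66905378, was the exception. It had 104.7, 126.1 and 141.8 CPM in GF ileum and 109.1, 132.6 and 160.8 CPM in GF duodenum, and 87.73, 131.8 and 150.3 CPM in convR ileum and 92.77, 141.8 and 175.9 CPM in convR duodenum. These ranges overlapped almost fully. The Uqcrb difference was -0.04 in GF mice (95% interval -0.12 to 0.05, edgeR adjusted p = 0.442) and -0.11 in convR mice (-0.30 to 0.09, adjusted p = 0.359), intervals that leave out the median member.

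In complex IV, 11 of 13 tested members were lower in GF ileum and 12 of 14 in convR ileum. Cox5a, a subunit on the matrix side, had 133.9, 142.7 and 163.6 CPM in GF ileum and 194.4, 214.6 and 230.4 CPM in GF duodenum. It differed by -0.57 in both GF and convR mice, and its convR ranges, 118.7, 145.7 and 170.6 CPM in ileum and 162.7, 212.3 and 257.5 CPM in duodenum, overlapped slightly. Among the isoforms, Cox7a1 had 15.23, 21.99 and 29.6 CPM in GF ileum and 36.69, 42.28 and 46.83 CPM in GF duodenum, and 14.08, 24.04 and 34.62 CPM in convR ileum and 29.25, 48.41 and 65.61 CPM in convR duodenum. GF libraries did not overlap, and Cox7a1 differed by -0.89 in GF mice and -1.02 in convR mice (edgeR adjusted p of 4.02e-09 and 1.7e-05). The summed markers of brown and white fat, a tissue that also expresses Cox7a1, ranged over 44.24 to 156.9 CPM in GF ileum and 73.02 to 148.8 CPM in GF duodenum, with none of 6 markers at 0 throughout, and over 55.17 to 116.4 CPM in convR ileum and 33.71 to 132.6 CPM in convR duodenum. Of the 5 fat markers tested, 0 were higher and 1 lower in GF ileum, and 4 were higher and 1 lower in convR ileum, with medians of 0.48 and 2.18. Shares of all genes called higher were 33.2% in GF and 24.9% in convR mice, and 33.4% and 24.8% were lower. The part of the fat markers in the Cox7a1 difference was not tested.

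Cox6b2, known from testis, was the 1 member called higher in ileum in each status. It had 0.583, 1.38 and 2.272 CPM in GF ileum and 0.3028, 0.8023 and 1.84 CPM in GF duodenum, and 0.6573, 1.429 and 2.171 CPM in convR ileum and 0.484, 0.778 and 2.147 CPM in convR duodenum. The ranges overlapped in both, with a difference of 0.65 (edgeR adjusted p = 0.00231) in GF mice and 0.65 (adjusted p = 0.0159) in convR mice. Both calls were lost without replicate 2, at 0.17 and 0.39, and the convR call was lost without the libraries that stood apart (0.58, adjusted p = 0.168). Cox7a2l was not called in GF mice (-0.06, edgeR adjusted p = 0.372) and was called lower in convR mice (-0.25, adjusted p = 0.0133). That convR call was lost without the libraries that stood apart (-0.18, adjusted p = 0.12) and without replicate 2 (-0.20, adjusted p = 0.114). Cox4i2 did not pass in convR mice (-0.38, adjusted p = 0.229). In GF mice it fell under the filter for low counts, and without the filter it was called lower (-1.09, adjusted p = 0.000581), on 60 reads in GF ileum and 129 in GF duodenum.

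In complex V, 16 of 18 members were lower in ileum in each status, with median differences of -0.54 and -0.51. The catalytic head was among them: Atp5a1 differed by -0.58 and -0.52 and Atp5b by -0.57 and -0.51 in GF and convR mice. The ring genes differed in pattern. Atp5g3, on chromosome 2 at 73908447 to 73911326, had 241.8, 258.5 and 287.0 CPM in GF ileum and 409.5, 490.9 and 545.9 CPM in GF duodenum, and 215.9, 252.1 and 317.5 CPM in convR ileum and 315.3, 441.5 and 521.1 CPM in convR duodenum. GF libraries did not overlap and convR libraries overlapped slightly, with differences of -0.92 ± 0.044 and -0.77 ± 0.0921 (SE; edgeR adjusted p of 1.44e-13 and 4.23e-07). Atp5g2, on chromosome 15 at 102662864 to 102672352, had 23.75, 28.62 and 30.5 CPM in GF ileum and 25.08, 29.14 and 35.74 CPM in GF duodenum, and 23.17, 27.73 and 34.27 CPM in convR ileum and 22.38, 30.75 and 40.4 CPM in convR duodenum. The Atp5g2 ranges overlapped almost fully, with differences of -0.08 (edgeR adjusted p = 0.21) and -0.15 (adjusted p = 0.153). With ileum and duodenum of a convR number paired as a replicate block, a pairing that the labels do not establish, Atp5g2 was called lower at -0.14 (adjusted p = 0.0294). Atp5j, coupling factor 6 of the stalk, was lower in GF ileum at -0.29 and did not pass in convR mice at -0.13 (adjusted p = 0.0771), but passed there with the block at -0.13 (adjusted p = 0.009). The exons of Atp5j overlap those of Gabpa by 397 bases, and since the strand setting of the counting is not given, their reads cannot be told apart there. The non-structural Atp5s did not pass in GF mice (-0.10, adjusted p = 0.291).

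**Figure D4:**
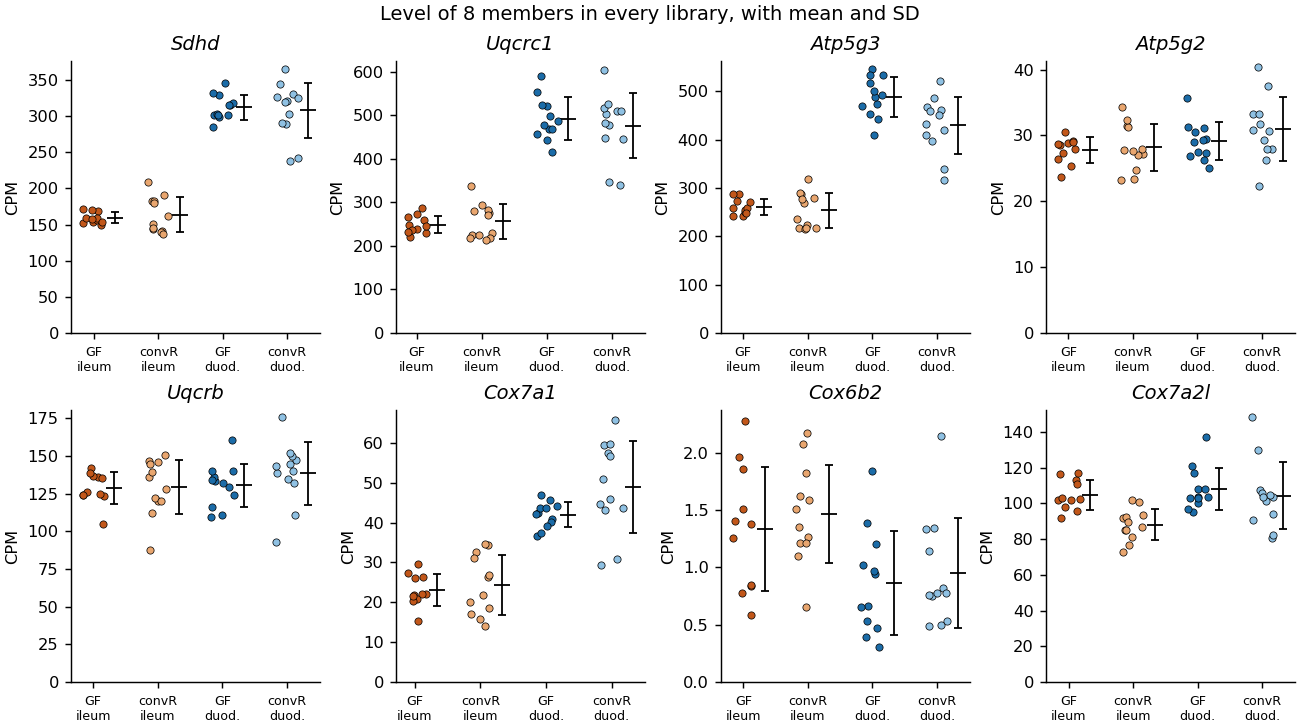
Level (CPM, axes from 0) of 8 members in every library, with 1 point per library and a bar for the mean and SD of GF ileum, convR ileum, GF duodenum and convR duodenum. Ileum libraries lie below duodenum libraries of the same status for Sdhd and Uqcrc1, whereas Uqcrb and Atp5g2 overlap.

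Across members, the ileum difference in GF mice followed that in convR mice, with Pearson's r of 0.94 over the 79 members tested in both and 0.92 without Cox6b2. The genes are not independent replicates, so r is given as a description.

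The other genes of the pathway were counted from lists. All 6 further subunits and partners, such as cytochrome c1 (Cyc1, -0.74 in GF and -0.72 in convR mice) and cytochrome c (Cycs, -0.86 and -0.52), were lower in ileum in both. Of 16 genes of the tricarboxylic acid cycle and its entry, which supplies NADH and succinate, 15 were lower in each status and Suclg2, a subunit of the GTP-forming succinyl-CoA ligase, was higher (0.31 and 0.21). Assembly factors were lower for 24 of 33 tested in GF and 22 of 33 in convR mice, and higher for 0 in both. Mitochondrial ribosomal proteins, which translate the mitochondrially encoded subunits, were lower for 47 and 50 of 76 and higher for 4 and 1. Of 7 tested carriers and uncoupling proteins, 4 and 3 were lower and 1 was higher in each. Over all genes, 33.4% in GF and 24.8% in convR mice were called lower, and 33.2% and 24.9% higher. Median differences were -0.44 and -0.52 for the further subunits, -0.46 and -0.52 for the cycle, -0.25 and -0.23 for assembly factors and -0.16 and -0.22 for ribosomal proteins, against 0.01 over all genes in each status.

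Of 15 tested regulators of mitochondrial genes, 8 were lower in ileum in each status, and 3 in GF and 2 in convR mice were higher, where 33.4% and 24.8% of all genes were lower and 33.2% and 24.9% higher. The median of this list was -0.20 in GF and -0.14 in convR mice. Esrrg, an estrogen-related receptor that binds the motif capitalised in the Sdhd and Atp5g3 windows, had 4.891, 5.498 and 7.033 CPM in GF ileum and 10.48, 14.24 and 16.81 CPM in GF duodenum, and 4.082, 5.585 and 8.928 CPM in convR ileum and 9.918, 14.02 and 23.01 CPM in convR duodenum. The tissues did not overlap in either status, with differences of -1.30 and -1.36. Its coactivators Ppargc1b (-1.22 and -1.02) and Ppargc1a (-1.14 and -0.86) were lower too, and Esrra by less (-0.56 and -0.32). Nrf1, nuclear respiratory factor 1, was higher by 0.11 and 0.16. Cyc1, Cycs, Suclg2 and these regulators were picked from their lists after their values were seen. The estrogen-related receptor motif was in 2 of 73 member windows, and the part of these regulators in the member levels was not tested.

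Markers of other cell types moved between the tissues as well. The counts below stand beside 33.4% of all genes lower and 33.2% higher in GF mice. In convR mice these shares were 24.8% and 24.9%. All 11 smooth muscle markers were higher in ileum in both statuses, and their sum ranged over 2797 to 3686 CPM in GF ileum and 1253 to 1656 CPM in GF duodenum, and over 2114 to 3032 CPM in convR ileum and 1143 to 2082 CPM in convR duodenum. Of 10 villus enterocyte markers, 5 were lower and 2 higher in GF ileum, and 5 lower and 4 higher in convR ileum. Their sum ranged over 24190 to 43110 CPM in GF ileum and 36950 to 54900 CPM in GF duodenum, and over 16930 to 32490 CPM in convR ileum and 16090 to 47480 CPM in convR duodenum. No marker of either list was at 0 throughout a group. T cell and intraepithelial lymphocyte markers were lower in ileum for 8 of 8 in GF mice and 7 of 8 in convR mice, with medians of -3.45 and -0.65. All tested plasma cell markers, 2 in GF and 3 in convR mice, were lower as well, and so were 3 of 3 and 2 of 3 red blood cell markers. Markers of dividing crypt cells were higher for 6 and lower for 1 of 7 in GF ileum, and higher for 2 of 7 in convR ileum. The part of tissue makeup in the lower subunit levels was not tested.

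In duodenum, absence of a flora was accompanied by no called difference in any of the 81 tested subunit genes, where edgeR called 46.3% of all genes. Member differences between GF and convR duodenum lay between -0.21 and 0.18 with a median of -0.01, against -0.01 over all genes, and their median size regardless of sign was 0.0537 against 0.21 over all genes. No member separated the groups without overlap, where 3.68% of all genes did. At an unadjusted p under 0.05 there were 3 members: Ndufs8, an iron-sulfur subunit of complex I (-0.19, edgeR adjusted p = 0.0605), Ndufa2, an accessory subunit (0.13, adjusted p = 0.0917), and Atp5g3 (0.18, adjusted p = 0.0641). DESeq2 called 1 member, Atp5g3, higher (adjusted p = 0.0394). For complex II the 95% intervals of the 4 genes together ran from -0.18 to 0.22, and the most extreme bounds over all members were -0.61 for Cox6b2 and 0.38 for Ndufa4l2. The count moved with the libraries used. Without the libraries that stood apart 7 members were called lower, without convR ZT6 replicate 1 there were 4, and without convR ZT14 replicate 1 there were 5. These were the lowest libraries for the members, at -0.37 and -0.35 log2 from the mean over all libraries of their tissue and status. Both were also among the libraries that stood apart. Without the libraries that stood apart, convR duodenum kept no library of ZT6 or ZT14 and replicate 2 at ZT10 only.

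In ileum, 3 of 79 tested members were higher and 4 lower in GF than in convR mice, where 19.5% of all genes were called higher and 22.4% lower, so a smaller share of members than of all genes was called. The median member difference was -0.02 against 0.01 over all genes, and the median size regardless of sign was 0.0503 against 0.171. No member separated the groups without overlap, where 6.01% of all genes did.

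Cox7a2l, on chromosome 17 at 83501918 to 83517330, was the member with the largest called rise in GF ileum. It had 91.81, 102.3 and 117.2 CPM in GF ileum and 72.63, 88.29 and 102.0 CPM in convR ileum. The GF median lay above every convR library, though the ranges overlapped. The difference was 0.24 ± 0.0569 (SE; edgeR adjusted p = 0.00215), higher at 6 of 6 times, and it was called under every alternative run, with adjusted p of 0.000167 to 0.047 over the settings and 0.000791 to 0.00551 when single libraries were left out. In duodenum it was 0.05 (adjusted p = 0.583), but the test of the difference between tissues did not pass (0.19, 95% interval -0.01 to 0.38, adjusted p = 0.215). Ndufa6, an accessory subunit of complex I, had 78.06, 98.42 and 112.2 CPM in GF ileum and 70.59, 84.96 and 107.8 CPM in convR ileum, and rose by 0.18 (edgeR adjusted p = 0.0423). Uqcrh, the hinge protein of complex III, had 167.1, 186.5 and 200 CPM in GF ileum and 152.8, 164.9 and 193.8 CPM in convR ileum, and rose by 0.12 (adjusted p = 0.035). Ranges of both genes overlapped widely between the groups, and both calls were lost without replicate 1 (Ndufa6 at 0.05, adjusted p = 0.501, and Uqcrh at 0.05, adjusted p = 0.443). Ndufa6 was also lost when any of 12 single libraries was left out (adjusted p up to 0.0815): convR replicate 1 of each of the 6 times, GF replicate 1 of ZT14, ZT18 and ZT22, and GF replicate 2 of ZT10, ZT14 and ZT18. Uqcrh was lost for any of 8 (up to 0.0679): convR replicate 1 of ZT6, ZT10, ZT14, ZT18 and ZT22, GF replicate 1 of ZT18 and ZT22, and GF replicate 2 of ZT14. With scaling by library size alone neither passed, at 0.12 and 0.07 (adjusted p of 0.0922 and 0.221), and without the filter for low counts Uqcrh did not pass at 0.12 (adjusted p = 0.0831).

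The members called lower in GF ileum were of complexes I and V. Ndufb2, an accessory subunit of complex I, had 26.83, 30.87 and 33.14 CPM in GF ileum and 30.58, 34.39 and 38.13 CPM in convR ileum, with a difference of -0.17 (edgeR adjusted p = 0.00579). Ndufc1, also an accessory subunit, had 21.4, 25.05 and 29.24 CPM in GF ileum and 22.94, 29.57 and 33.53 CPM in convR ileum, with a difference of -0.20 (adjusted p = 0.0166). The groups overlapped for both, and both were lower at 6 of 6 times. Atp5e, the epsilon subunit of the stalk, had 58.15, 67.92 and 75.61 CPM in GF ileum and 65.18, 78.18 and 86.92 CPM in convR ileum, with a difference of -0.16 (adjusted p = 0.0147). Atp5j had 82.57, 91.91 and 95.49 CPM in GF ileum and 86.76, 97.09 and 112.2 CPM in convR ileum, with a difference of -0.15 (adjusted p = 0.0152), lower at 5 of 6 times. All 4 calls were lost without replicate 2, where the differences were -0.05 for Ndufb2, -0.05 for Ndufc1, -0.03 for Atp5e and -0.01 for Atp5j (adjusted p of 0.601, 0.663, 0.764 and 0.871). Without the libraries that stood apart, Atp5j (-0.12, adjusted p = 0.0565) and Ndufc1 (-0.17, adjusted p = 0.0525) did not pass. Exons of Ndufb2 overlap those of Braf, so its reads are uncertain in the same way as those of Atp5j.

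None of the 4 complex II genes was called between GF and convR ileum, with Sdhb lowest at -0.14 (95% interval -0.26 to -0.01, edgeR adjusted p = 0.078). Sdhb was called lower with the replicate block, which here added the replicate number as a term (-0.14, adjusted p = 0.0119). It was also called lower with scaling by library size alone (-0.19, adjusted p = 0.00729) and without replicate 1 (-0.26, adjusted p = 0.00206). Without replicate 1, Sdhc (-0.16, adjusted p = 0.0446) and Sdhd (-0.18, adjusted p = 0.0396) were called lower too. The test of whether the GF difference itself differed between ileum and duodenum called 0 of 81 members, where 12.3% of all genes were called, with 1 member, Atp5j, at an unadjusted p under 0.05 (-0.16, adjusted p = 0.158) and 0 calls by DESeq2. With the replicate block Atp5j was called (-0.16, adjusted p = 0.0361). That block also paired GF ileum with GF duodenum, which the replicate numbers did not support (correlations of -0.046 to 0.133). The median difference of the members was -0.005 with all libraries and 0.11 without the libraries that stood apart, where 0 were called as well. The comparisons of GF with convR in each tissue use separate libraries. Beside these, 10 of 11 smooth muscle markers were higher in GF ileum than in convR ileum, and all 8 T cell and intraepithelial lymphocyte markers were lower, with sums of 4.418 to 17.34 CPM in GF ileum and 56.35 to 195.6 CPM in convR ileum. Plasma cell markers were lower for 3 of 3 tested, dividing crypt cell markers for 5 of 7 and fat markers for 3 of 5, while 2 of 3 red blood cell markers were higher. In GF duodenum, 3 of 3 plasma cell, 8 of 8 T cell and 6 of 7 dividing crypt cell markers were lower and 3 of 3 red blood cell markers higher than in convR duodenum. Of 10 villus enterocyte markers, 5 were higher and 0 lower in GF duodenum (median 0.28). In GF ileum 3 of these 10 were higher and 1 lower (median 0.19). The part of these cell types in the member differences was not tested. Of the related lists in GF ileum, 10 assembly factors were higher and 2 lower of 33, 3 cycle genes were higher and 1 lower of 16, and 3 mitochondrial ribosomal proteins were higher and 4 lower of 76, where 19.5% of all genes were higher and 22.4% lower. In GF duodenum the counts were 7 higher and 5 lower of 33 assembly factors, 3 and 1 of 16 cycle genes and 5 and 25 of 76 mitochondrial ribosomal proteins, where 46.3% of all genes were called in either direction.

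The level of the members moved with the replicate number. In convR ileum the summed level was higher in replicate 2 than in replicate 1 at 6 of 6 times, with 11300 to 12620 CPM in replicate 2 and 9265 to 9899 CPM in replicate 1. In convR duodenum it was also higher at 6 of 6 times, with 15650 to 18400 CPM in replicate 2 and 11550 to 16250 CPM in replicate 1. In GF mice the order was less regular, with replicate 2 higher at 4 of 5 times in ileum (9993 to 11280 CPM in replicate 2 and 9862 to 10490 CPM in replicate 1) and at 4 of 6 in duodenum (14100 to 17140 CPM and 14200 to 15610 CPM). The median difference of GF from convR over members was -0.13 in ileum and -0.11 in duodenum with replicate 2 alone, and 0.10 and 0.07 with replicate 1 alone. The labels do not say what the number stands for.

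**Figure D5:**
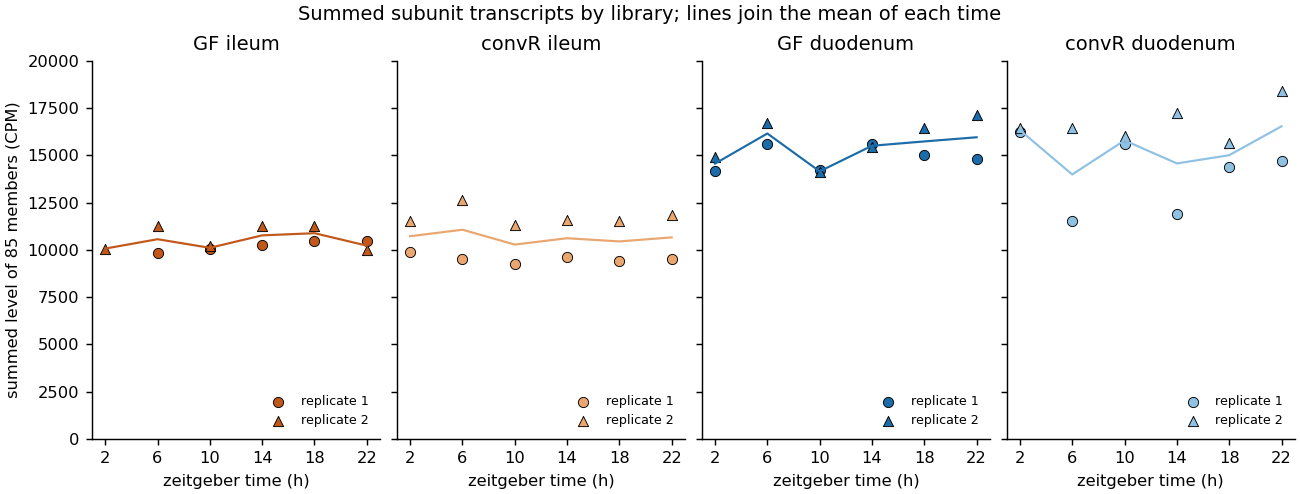
Summed level of the 85 members (CPM, axis from 0) in each library against zeitgeber time, with circles for replicate 1, triangles for replicate 2 and a line through the mean of each time. In both convR panels the triangles lie above the circles at all 6 times.

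Members varied together from library to library. After the mean of each tissue and status was removed, the median pairwise correlation of log2 levels was 0.80 over 3240 pairs of members and 47 libraries, 0.79 within a complex and 0.81 between complexes. Without the libraries that stood apart it was 0.72 over 35 libraries. Of the 81 members, 70 (86.4%) had r above 0.8 with the mean of the others. Of 19000 tested genes, members included, 1.18% had r above 0.8 with the mean of all 81 members. The members that followed the mean least were Cox6b2 (r = 0.10), Ndufa4l2 (0.20), Atp5sl (0.41), Atp5s (0.43), Atp5l2 (0.48) and Cox4i2 (0.50), which are the low isoform genes, the pseudogene and the 2 genes that are no structural subunits. The shift with replicate number was not removed and is part of these correlations. The points share libraries, depth and scaling, so these values describe the data and carry no p.

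No member followed a 24 h cosine at an edgeR adjusted p of 0.05 or less in any group. Background calls over all genes were 2.68% in GF duodenum, 0.0301% in convR duodenum, 1.39% in GF ileum and 0.133% in convR ileum. At an unadjusted p under 0.05 there were 1 of 78 members in GF duodenum, 2 of 79 in convR duodenum, 1 of 79 in GF ileum and 1 of 79 in convR ileum. The median fitted peak-to-trough range of the members was 0.121, 0.197, 0.102 and 0.092 log2 in these groups, against 0.251, 0.275, 0.204 and 0.215 over all genes. DESeq2 called 1 member in convR duodenum, Atp5sl (adjusted p = 0.00529), and 1 in GF ileum, Cox6b2 (adjusted p = 0.017).

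The fitted rhythms with the smallest p among the members did not pass. In GF duodenum Ndufa6 had the smallest p, with a range of 0.31 and a peak at ZT21.1 (edgeR adjusted p = 0.212). In convR duodenum Atp5sl, with a range of 0.48 and a peak at ZT1.6, had the smallest p (adjusted p = 0.137). In GF ileum Cox6b2 ranged over 1.34 with a peak at ZT18.8 (adjusted p = 0.105), and in convR ileum Atp5sl over 0.35 (adjusted p = 0.494). Fitted peaks fell between ZT18 and ZT24 for 59 of 78 members in GF duodenum and 52 of 79 in convR duodenum, between ZT12 and ZT18 for 40 of 79 in GF ileum and between ZT0 and ZT6 for 38 of 79 in convR ileum. Members share their libraries, so these counts are not independent, and peak times over all genes were not counted beside them. In convR duodenum, replicate 1 of ZT6 and of ZT14 lay at -0.37 and -0.35 log2 from the group mean over members. The part of these libraries in the fitted peaks was not tested. The difference in rhythm between GF and convR mice was called for 0 members in duodenum and in ileum, where 0% of all genes were called, with 0 and 1 members at an unadjusted p under 0.05. Time means of the summed level ran from 14160 to 16170 CPM in GF duodenum, 14000 to 16540 CPM in convR duodenum, 10070 to 10880 CPM in GF ileum and 10280 to 11070 CPM in convR ileum.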

How the data were processed

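Per the file headers, the deposited table gives raw exon read counts and an exon length for each gene. Reads were aligned with STAR 2.4.0i to mm10, per the submitters' processing notes; per the labels, libraries were stranded total RNA depleted of ribosomal RNA. How reads were counted, on which annotation and with which strand setting, is not given in the sources used here. Of the members, 29 have exons that overlap another gene, 5 on the same strand.

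Counts were scaled by TMM and compared with edgeR 4.0.16 quasi-likelihood tests (robust, time as a factor, minimum count 10 in filterByExpr), with two-sided p and Benjamini-Hochberg adjustment over all genes at 0.05. Rhythms were tested as a 24 h cosine. DESeq2 1.42.0 served as an alternative. Scripts were tested on simulated data. The members and lists were chosen with earlier results of these data known. Named members are the 2 smallest p per complex and the 3 largest called differences each way in each comparison, the 3 smallest p per rhythm, complex II and the isoform families; others were chosen after their values were seen. Differences between replicates 1 and 2, over tested genes, correlated between convR ileum and convR duodenum at 6 of 6 times (0.246 to 0.559). In the other pairs of groups the correlation was above 0.1 at some times only. Shared mice and a shift common to a replicate number cannot be told apart by this.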

Additional observations from a re-analysis of the deposited data

How the results depend on the processing

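Lower levels in ileum held under the alternatives run: 71 to 77 members were called lower in GF and 70 to 78 in convR mice, the fewest without replicate 2 in convR mice. Without the filter for low counts 2 members, not 1, were called higher in each status (Cox8b was added, at 1.71 in GF and 1.25 in convR mice), and Cox6a2 (-1.65 and -2.03), Cox4i2 (-1.09, GF) and Ndufa4l2 (-1.30, GF) were added among the lower. Without the libraries that stood apart the 1 higher call in convR mice was Cox8b (1.46, adjusted p = 0.00842) in place of Cox6b2. Without replicate 2 there were 0 higher, and Ndufa4l2 was called lower in GF mice (-1.45, adjusted p = 0.00298). With the replicate block, which pairs convR ileum and duodenum, 78 members were lower.

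The counts between GF and convR depended on the processing, and the cause was not tested. Counts below are of members only. In the main fits 46.3% of all genes were called in duodenum, and 19.5% were higher and 22.4% lower in ileum. Shares of all genes under the other settings are not given here. The replicate block in these comparisons added the replicate number as a term and paired no libraries. In duodenum, where 0 were called, scaling by library size alone gave 39 lower, a setting that moved the median of all genes to -0.14, close to the member median of -0.14. DESeq2 gave 1 higher, omitting replicate 1 gave 15 lower, omitting replicate 2 gave 1 higher, omitting the libraries that stood apart gave 7 lower, and the replicate block gave 1 higher (Atp5g3) and 1 lower (Ndufs8). Leaving out single libraries gave 0 to 1 higher and 0 to 5 lower, with 1 lower without convR ZT18 or ZT22 replicate 1 or GF ZT22 replicate 2, and 1 higher without convR ZT2 or ZT14 replicate 2, GF ZT6 replicate 1 or GF ZT10 replicate 2.

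In ileum, where 3 were higher and 4 lower, library size alone gave 1 higher and 17 lower (median of all genes -0.05), omitting replicate 1 gave 1 higher and 22 lower, omitting replicate 2 gave 12 higher and 0 lower, omitting the libraries that stood apart gave 4 higher and 2 lower, and the replicate block gave 4 higher and 13 lower. Ndufa2 was the added higher call in the last 2 of these settings (0.13 and 0.11). It was also added as higher with DESeq2 (0.123, DESeq2 adjusted p = 0.0238). With the size factors of DESeq2 in edgeR it was added too (0.124, edgeR adjusted p = 0.0304). Leaving out single libraries gave 1 to 5 higher and 4 to 11 lower. There was 1 higher without convR replicate 1 of ZT6, ZT10, ZT14, ZT18 or ZT22, GF replicate 1 of ZT18 or ZT22, or GF ZT14 replicate 2, and 5 without the GF ZT2 library. There were 8, 9, 10 and 11 lower without convR replicate 1 of ZT6, ZT10, ZT14 and ZT18, and 7 without GF ZT6 replicate 2. The number of calls for the tissue difference was 0, or 1 lower (Atp5j) with the replicate block. In this fit the block paired the tissues in GF as well as convR mice.

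Rhythm calls were 0 except for DESeq2 with 1 in convR duodenum and 1 in GF ileum, and 1 in GF ileum without the filter (Cox6b2, adjusted p = 0.0468). Pairing across GF and convR was not supported by the numbers, with correlations of -0.047 to 0.253 in duodenum and -0.055 to 0.336 in ileum, nor between tissues in GF mice (-0.046 to 0.133). Removal of mitochondrially encoded genes before scaling was not run, since no row matched them. No direction of a called result was reversed. Counts of a few reads limit Cox6a2, Cox8b, Cox4i2 and Ndufa4l2. Summed levels by group and the Atp5g and Cox7a shares moved by less than 1 SD without the libraries that stood apart, a repeat added after the data were seen.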
